A study of Mus musculus with 4 samples.

Results

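The proteasome genes described here are 38 mouse genes taken by name, coding for the subunits of the proteasome, 2 of its assembly chaperones and its activators. They fall into 7 alpha and 8 beta subunits of the 20S core particle, 6 ATPases, 3 other base subunits and 8 lid subunits of the 19S cap, the base chaperones Psmd5 and Psmd10, and the 4 activators Psme1, Psme2, Psme3 and Psme4. A gene was measured where a probe set on the array named it and no other gene, and where several did, the brightest was used. Of the 38 genes, 37 were measured, among 12645 genes tested, and these 37 also passed the filter on low signal. The probe set for Psme2 is shared with Psme2b, so Psme2 has no value here.

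The signals came from 4 Affymetrix arrays of RNA from IgA+ cells of the small intestine, the antibody-secreting lineage of the gut wall. The donors were untreated female Balb/c mice aged 9 weeks, called WT in the sample titles, with no other allele or agent named. The cells had been separated on CD11b, the integrin alpha M chain, into CD11b+ IgA+ and CD11b- IgA+ cells, with 2 arrays of each. Each fraction had 1 array labelled with the One-Cycle kit (RNA input 1 µg) and 1 labelled with the 3' IVT Express kit (RNA input 0.1 µg), and kit and RNA input cannot be told apart. Wherever 2 values are given for a fraction below, the One-Cycle array comes first. The labels name neither the number of mice nor whether the arrays of a fraction came from separate mice or sorts, and p-values therefore reflect no more than the scatter among these 4 samples, part or all of which may be technical.

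The proteasome is the protease that degrades proteins marked with ubiquitin. Rings of alpha subunits gate a barrel whose beta rings carry the cutting sites, and the cap recognises the ubiquitin chain, removes it, unfolds the substrate with its ATPase ring and feeds it into the barrel. Plasma cells synthesise very large amounts of antibody, send misfolded chains from the endoplasmic reticulum to the proteasome, and are known for their sensitivity to proteasome inhibitors.

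Across the 4 arrays the deposited signals were not on one scale, with trimmed means of 48.6 and 70.05 in the CD11b- and 73.8 and 90.3 in the CD11b+ arrays, and were quantile-normalized. Itgam, the gene of CD11b, was 6.04-fold higher in the CD11b+ arrays. The 9 plasma cell markers (Igha, Jchain, Sdc1 and others) were all measured, and 8 of them were lower with both kits, with summed signals of 49133 to 49835 in the CD11b+ and 52399 to 53328 in the CD11b- arrays. Sdc1 (log2 -0.61) and Cd79a (-0.63) were called lower by limma with the kit as a block (adjusted p = 8.98e-06 and 0.000157). The other plasma cell markers differed less and were not called. Prdm1 (-0.18), Irf4 (-0.17), Igha (-0.099), Tnfrsf17 (-0.064), Xbp1 (-0.036) and Mzb1 (-0.033) were slightly lower, and Jchain (0.099) was slightly higher. All 14 epithelial markers had lower means in the CD11b+ arrays, 13 of them with both kits, with sums of 2115 to 2820 against 5040 to 5407 in the CD11b- arrays. All 6 measured cycling markers of 7 (Mki67, Top2a and others) were higher with both kits, with sums of 4040 to 5299 against 1878 to 2625. Of 9 T and NK cell markers 6 were lower with both kits, with sums of 1389 to 2737 against 2023 to 5517. Of 10 measured macrophage and dendritic cell markers of 11, 5 were higher and 3 lower with both kits, with sums of 2413 to 2623 against 3526 to 3824. Cst3 made up most of those sums, and without it they were 500.2 to 669 against 385 to 441, higher in the CD11b+ arrays. Sums over 5 stromal markers were 142 to 183 against 108 to 176, and over 2 measured granulocyte markers of 5 they were 70.2 to 83.4 against 148 in both arrays. No measured marker was at 0 on any array. The plasma cell, epithelial, cycling, macrophage and granulocyte marker sums separate the fractions and so move with every proteasome comparison given here, and their part in the results was not tested. In bulk RNA, fewer cells of a type and less RNA per cell cannot be told apart.

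Proteasome transcripts were, as a list, slightly more abundant in the CD11b+ arrays, by a median of 1.14-fold. The median signal of the 37 genes was 582 and 562 in the CD11b+ arrays and 531 and 479 in the CD11b- arrays, so both CD11b+ values lay above both CD11b- values. On the log2 scale (signal plus a pseudocount of 3) the median difference was 0.18, the quartiles were 0.083 and 0.32 and the values ran from -0.14 to 0.60, while the median over all 12645 genes was 0.0027. The shift was the same size with either kit, 0.21 within the One-Cycle arrays and 0.21 within the 3' IVT Express arrays, where all genes had medians of -0.0090 and 0.014. In all, 31 of the 37 genes had a positive mean difference and 6 a negative one.

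With both kits, 25 of the 37 genes (67.6%) were higher in the CD11b+ array, against 31.6% of all genes tested. The genes lower with both kits were 3, Psma7, Psmd4 and Psme1 (8.11%, against 30.5% of all genes), and 9 had opposite signs. Relative to all genes, those 3 differences turned positive with the deposited scaling, median centring and a common trimmed mean, and remained negative with cyclic loess. In 14 genes (37.8%) both CD11b+ arrays lay above both CD11b- arrays, against 18.3% of all genes, and in 3 both lay below, against 17.3%. The differences were small all the same: 3 of the 37 genes (8.11%) exceeded 0.5 on the log2 scale, against 21.5% of all genes. The proteasome genes were brighter than most genes, with array medians of 479 to 582 against 71.5 to 73.3 over all genes tested. The shares over all genes given here and below were not matched for signal.

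No proteasome gene passed limma's test without regard to kit at an adjusted p under 0.05, and neither did any of the 12645 genes (0%). At an unadjusted p under 0.05 that fit gave 1 proteasome gene, Psma1, with 397 genes higher and 445 lower over the whole array. With 2 arrays a side, the smallest p of an exact permutation test is 0.333. In the limma fit that compares the fractions within kits, with the labelling kit as a block, 5 of the 37 genes (13.5%) passed as higher, against 3.73% of all genes. None of the 37 passed as lower, against 4.14% of all genes. The 5 were Psma1, Psma2 and Psma5 of the alpha ring, Psmb7 of the beta ring and Psmd14 of the lid. With 1 residual degree of freedom for each gene, that fit takes most of its precision from the other genes on the array. At an unadjusted p under 0.05 it gave 15 proteasome genes, all of them higher.

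**Figure D1:**
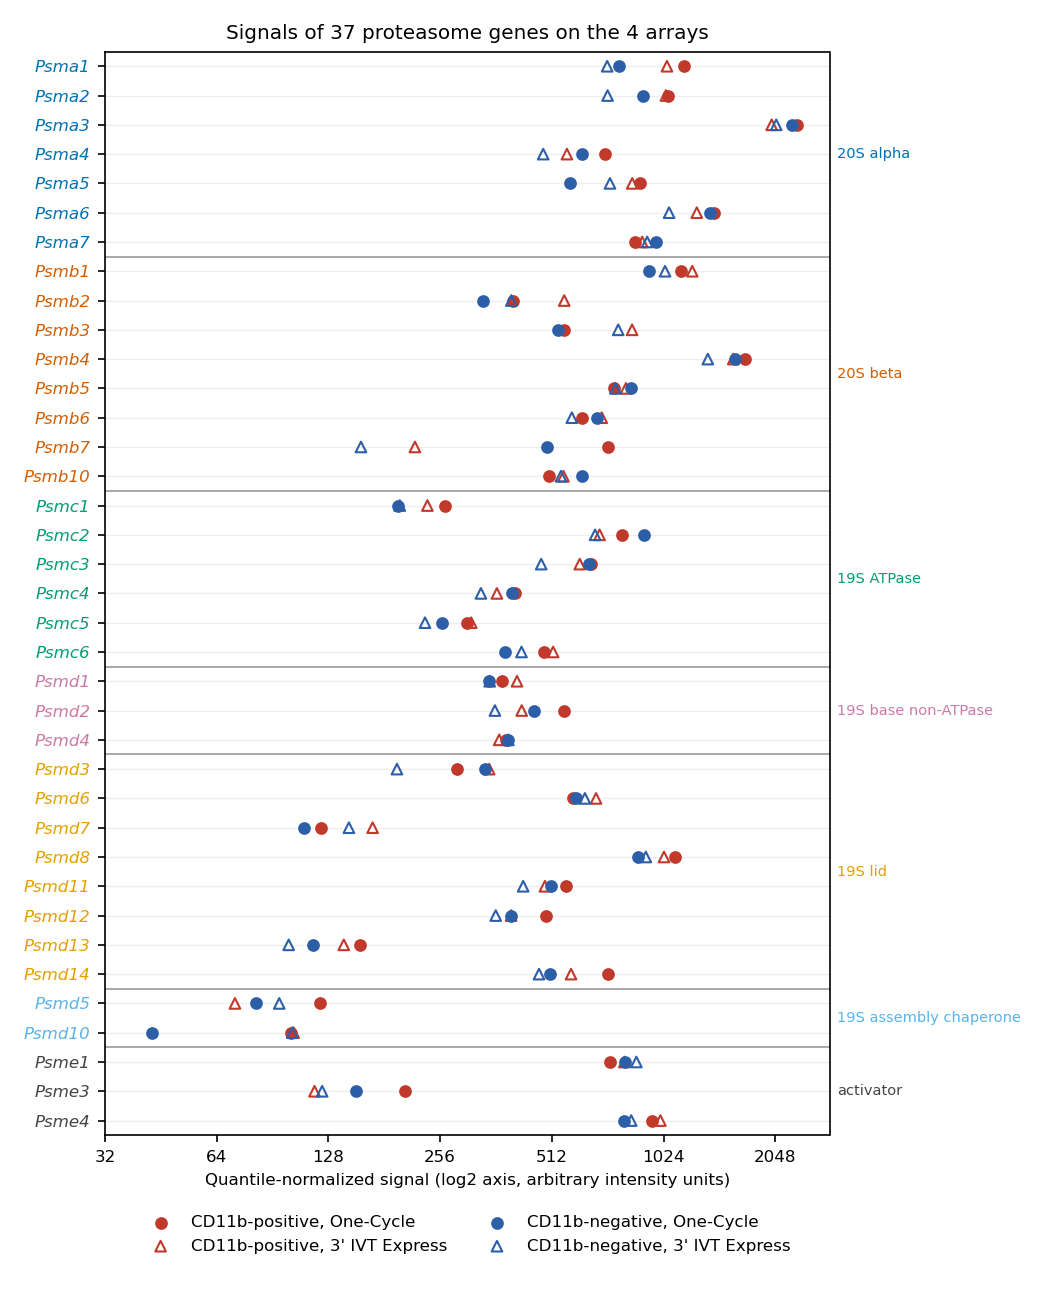
Quantile-normalized signal (log2 axis) of the 37 measured proteasome genes, grouped by role, with 1 point per array: red for CD11b+, blue for CD11b-, filled circles for One-Cycle and open triangles for 3' IVT Express. Red points lie to the right of the blue point of the same shape with both kits in 25 genes, and Psmb7 shows the widest separation of circles from triangles.

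The alpha ring, which forms the gate of the core particle, held 3 of the 5 genes called with the block, of which Psma2 alone was also called when the probe sets of each gene were averaged (limma adjusted p = 0.234 for Psma1 and 0.153 for Psma5). Psma1 had signals of 1166 and 1046 in the CD11b+ arrays and 778 and 722 in the CD11b- arrays. Both CD11b+ arrays were well above both CD11b- arrays, a 1.47-fold difference that was nearly equal in the kits (log2 0.58 and 0.53; SE 0.10, limma adjusted p = 0.000536 with the kit block). Psma5 had signals of 882 and 843 against 573 and 734. Again the fractions did not overlap, with a 1.33-fold difference that was larger with One-Cycle (log2 0.62) than with 3' IVT Express (0.20; limma adjusted p = 0.0243 with the block). Psma2 gave 1055 and 1039 against 900.3 and 724. Its CD11b+ arrays were nearly identical and its lowest array was CD11b- with 3' IVT Express, for a 1.30-fold difference (log2 0.23 and 0.52; limma adjusted p = 0.0266 with the block).

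The other 4 alpha subunits did not pass in either fit. Psma4 had log2 differences of 0.21 and 0.21 and Psma6 of 0.038 and 0.25 in the One-Cycle and 3' IVT Express arrays. Psma3 was level, at 0.049 and -0.041, and Psma7 was the only alpha subunit lower with both kits, at -0.19 and -0.045. Another Psma7 probe set gave 0.085 and -0.053. The median of the 7 was 0.21 over both kits and also within each, and 5 of the 7 were higher with both. Leaving out 1 array changed that median most, from 0.036 relative to all genes without either the CD11b+ One-Cycle array or the CD11b- 3' IVT Express array to 0.38 without the CD11b+ 3' IVT Express array. Here and below, values with 1 array left out have no term for the kit. The kits are then uneven between the fractions, so kit differences enter these values.

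Among the beta subunits, 1 of the 3 proteolytic ones of the standard core was called with the block and the others were near level. Psmb7, which carries the trypsin-like site, had signals of 724 and 219 in the CD11b+ arrays against 496 and 157 in the CD11b- arrays. Within each kit the CD11b+ array was higher, by log2 0.54 and 0.48, a 1.42-fold difference (SE 0.13, limma adjusted p = 0.0132 with the block). Across kits the fractions overlapped widely, and the 3' IVT Express signals minus the One-Cycle signals averaged -1.68 on the log2 scale, the largest kit difference in the list. The difference without regard to kit turned to -0.38 relative to all genes without the CD11b+ One-Cycle array and to -0.32 without the CD11b- 3' IVT Express array, and was 1.34 and 1.37 without the other two in turn.

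Psmb5, with the chymotrypsin-like site, had signals of 754 and 811 against 836 and 759.7. The fractions overlapped and the kits disagreed in sign (log2 -0.15 and 0.094). Psmb6, with the caspase-like site, had signals of 619 and 698 against 677 and 579.6. It too overlapped, lower with One-Cycle and higher with 3' IVT Express (-0.13 and 0.27). Psmb10, the immunoproteasome subunit that takes the place of Psmb7 in cells exposed to interferon and in many immune cells, had signals of 502 and 550.3 against 619 and 542. It was lower in the CD11b+ array with One-Cycle and level with 3' IVT Express (-0.30 and 0.022). The adjusted p of these 3 genes with the block was 0.938, 0.814 and 0.59 by limma. Whether Psmb7 differed from the other proteolytic subunits was not tested.

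The structural beta subunits lay closer to the list as a whole. Psmb2 had signals of 403 and 553 against 334 and 398. Its difference was 1.29-fold, but the lower CD11b+ array and the higher CD11b- array nearly coincided, and it missed the threshold (limma adjusted p = 0.0692 with the block). Psmb1 had signals of 1141 and 1224 against 937 and 1033. Its fractions were separate, 1.20-fold apart, with an adjusted p of 0.115 by limma with the block. Psmb3 differed by log2 0.059 and 0.12 and Psmb4 by 0.089 and 0.23 within the kits. Over all 8 beta subunits the median was 0.12 (0.074 with One-Cycle and 0.24 with 3' IVT Express), 5 were higher with both kits and none lower with both. That median was 0.12 relative to all genes, and it was -0.0044 without the CD11b- 3' IVT Express array, 0.067 without the CD11b+ 3' IVT Express array, 0.19 without the CD11b- One-Cycle array and 0.26 with the deposited scaling.

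The promoter is shown for 4 of the 5 genes called with the block and for Psmb5 and Psmb6, proteolytic subunits that were not called. Each line gives the 160 bases that end at the base before the transcription start, 5′ to 3′ on the gene's strand, from RefSeq on GRCm38.p6. Capitals mark matches to any of 5 motifs searched on both strands. They include the antioxidant response element used by the proteasome regulator NRF1, TGACNNNGC, and a variant of it, TGANNNAGC. Neither of these patterns contains the other. The remaining motifs are the CCAAT box, CCAAT, an ETS factor core, CCGGAAG, and the GC box, GGGCGG. Both forms of the response element can match at one place.
Psma1 (chr7:114276117-114276276, minus strand): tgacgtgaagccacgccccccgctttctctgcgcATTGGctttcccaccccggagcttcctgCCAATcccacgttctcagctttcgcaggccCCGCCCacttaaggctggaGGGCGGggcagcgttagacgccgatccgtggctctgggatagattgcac
Psma2 (chr13:14613082-14613241, plus strand): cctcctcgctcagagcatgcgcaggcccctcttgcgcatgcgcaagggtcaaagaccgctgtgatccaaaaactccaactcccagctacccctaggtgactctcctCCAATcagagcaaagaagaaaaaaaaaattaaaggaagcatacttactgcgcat
Psma5 (chr3:108256766-108256925, plus strand): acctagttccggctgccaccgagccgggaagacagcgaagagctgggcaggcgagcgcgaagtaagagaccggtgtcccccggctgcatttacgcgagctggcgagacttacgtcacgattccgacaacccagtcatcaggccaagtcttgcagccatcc
Psmd14 (chr2:61711534-61711693, plus strand): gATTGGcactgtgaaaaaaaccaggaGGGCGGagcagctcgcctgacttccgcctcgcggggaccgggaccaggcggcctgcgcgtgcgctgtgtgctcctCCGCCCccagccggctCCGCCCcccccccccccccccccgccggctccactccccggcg
Psmb5 (chr14:54617996-54618155, minus strand): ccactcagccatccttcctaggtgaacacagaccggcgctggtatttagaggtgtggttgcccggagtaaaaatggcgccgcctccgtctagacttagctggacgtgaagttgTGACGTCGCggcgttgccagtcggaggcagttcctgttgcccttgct
Psmb6 (chr11:70525197-70525356, plus strand): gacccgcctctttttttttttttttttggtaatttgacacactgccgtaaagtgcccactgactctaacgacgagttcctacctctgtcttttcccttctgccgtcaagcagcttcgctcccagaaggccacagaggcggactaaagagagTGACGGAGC
Psmb7 and 5 other genes of the list were not in the promoter table. Of the 32 genes that were, the response element TGACNNNGC was within 250 bases before to 50 after a start in 5 (15.6%, against 14.0% of 27025 genes with promoters of the same length). The variant TGANNNAGC was in 8 (25% against 16.6%). The CCAAT box was in 12 (37.5% against 41.1%), the ETS core in 12 (37.5% against 9.93%) and the GC box in 20 (62.5% against 38.2%). A match is a description, not a site or a cause. In the windows shown, the element TGACNNNGC was present in Psmb5 and Psmb6 and in none of the 4 called genes, and Psma5 had none of the 5 motifs. Psmb5 and Psmb6 are among the 5 genes of the list with that element, and most uncalled genes lack it too. A difference between called and uncalled genes was not tested. The base composition of the promoters was not matched in these shares.

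The 6 ATPases form the ring that unfolds substrates, and 5 of them were higher with both kits, with none passing the test. Psmc1 had signals of 263 and 237 in the CD11b+ arrays against 197 and 199 in the CD11b- arrays. Psmc5 had signals of 303 and 310.4 against 259 and 233. Psmc6 had signals of 486 and 516 against 382 and 424. In each of the 3 the lower CD11b+ array exceeded the higher CD11b- array, and the differences were 1.26-, 1.25- and 1.24-fold, with limma adjusted p-values of 0.21, 0.195 and 0.124 with the block. The within-kit log2 differences of Psmc3 were 0.018 and 0.34 and those of Psmc4 were 0.024 and 0.14. Psmc2 alone had opposite signs, -0.19 and 0.040. The median over the ATPases was 0.25, or 0.12 with One-Cycle and 0.26 with 3' IVT Express. The ATPase median was 0.24 relative to all genes, and it was 0.16 without the CD11b+ One-Cycle array, 0.10 without the CD11b- 3' IVT Express array and 0.37 with the deposited scaling.

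The base also holds scaffold and receptor subunits without ATPase activity. Psmd2, which docks ubiquitin-like proteins, had signals of 551 and 425 against 458 and 359.6. Within each kit the CD11b+ array was higher (log2 0.26 and 0.24), although the fractions overlapped across kits. Psmd1, a scaffold of the base, had signals of 376 and 412 against 347 and 348. Here the CD11b- arrays were alike and both CD11b+ arrays higher, 1.13-fold on average. Psmd4, a ubiquitin receptor, had signals of 386 and 369 against 389.6 and 391. Its difference was slightly negative with both kits (-0.014 and -0.081). The second brightest Psmd4 probe set was higher with both kits (0.35 and 0.081), and a weaker one was lower with both (-0.30 and -1.32). None of the 3 genes passed with the block (limma adjusted p = 0.249, 0.494 and 0.895).

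All 8 lid subunits had a positive mean difference, 6 of them with both kits, for a median of 0.24 (0.23 with One-Cycle and 0.20 with 3' IVT Express). Psmd14, the deubiquitinase that strips the ubiquitin chain before the substrate enters, had signals of 723 and 577 in the CD11b+ arrays against 508 and 473 in the CD11b- arrays. The fractions were separate and the difference was 1.32-fold (log2 0.51 and 0.29; SE 0.12, limma adjusted p = 0.0324 with the block). Psmd13 had signals of 156 and 141 against 116 and 100.04. Psmd8 had signals of 1102 and 1027 against 873 and 917. Both are scaffold subunits of the lid, and in both the fractions were separate, 1.36- and 1.19-fold apart, without passing the test (limma adjusted p = 0.154 and 0.16 with the block).

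The remaining lid genes are scaffold subunits too, apart from Psmd7, the inactive partner of Psmd14. Within-kit log2 differences were 0.32 and 0.14 for Psmd12, 0.14 and 0.19 for Psmd11 and 0.15 and 0.21 for Psmd7. Psmd6 was near level, at -0.029 and 0.099. Psmd3 disagreed most between kits of the lid genes, at -0.25 with One-Cycle and 0.82 with 3' IVT Express.

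The chaperones that help assemble the base gave no steady difference. Psmd10, also known as gankyrin, had the largest mean difference of the list, 1.52-fold, but its signals were 102 and 103 in the CD11b+ arrays and 42.9 and 102 in the CD11b- arrays. One array, CD11b- with One-Cycle, was low and the other 3 were alike, so the log2 difference was 1.19 with One-Cycle and 0.012 with 3' IVT Express. Psmd5 changed sign between kits, at 0.56 and -0.38.

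The activators open the core particle as alternatives to the cap. Psme1, a subunit of the interferon-inducible activator PA28, had signals of 736 and 803 against 804 and 865. Both CD11b+ arrays lay below both CD11b- arrays, with log2 differences of -0.13 and -0.11. The higher CD11b+ array and the lower CD11b- array nearly coincided (803.3 and 803.7). Psme3, which forms the nuclear PA28 ring, had signals of 206 and 117 against 152 and 123. Its difference came from the One-Cycle arrays (0.44) and was slightly negative with 3' IVT Express (-0.066). Psme4, or PA200, a nuclear activator linked to histone turnover, had signals of 953 and 1004 against 803 and 838. Its fractions were separate and the kits gave nearly the same difference (0.25 and 0.26). Its name marks that probe set as open to cross-hybridisation, and the next brightest Psme4 probe sets gave mean differences of 0.020 (-0.39 and 0.43 in the kits) and -0.041. With all probe sets averaged, Psme4 stood 0.0095 above all genes. None of the 3 passed with the block (limma adjusted p = 0.624, 0.652 and 0.152).

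**Figure D2:**
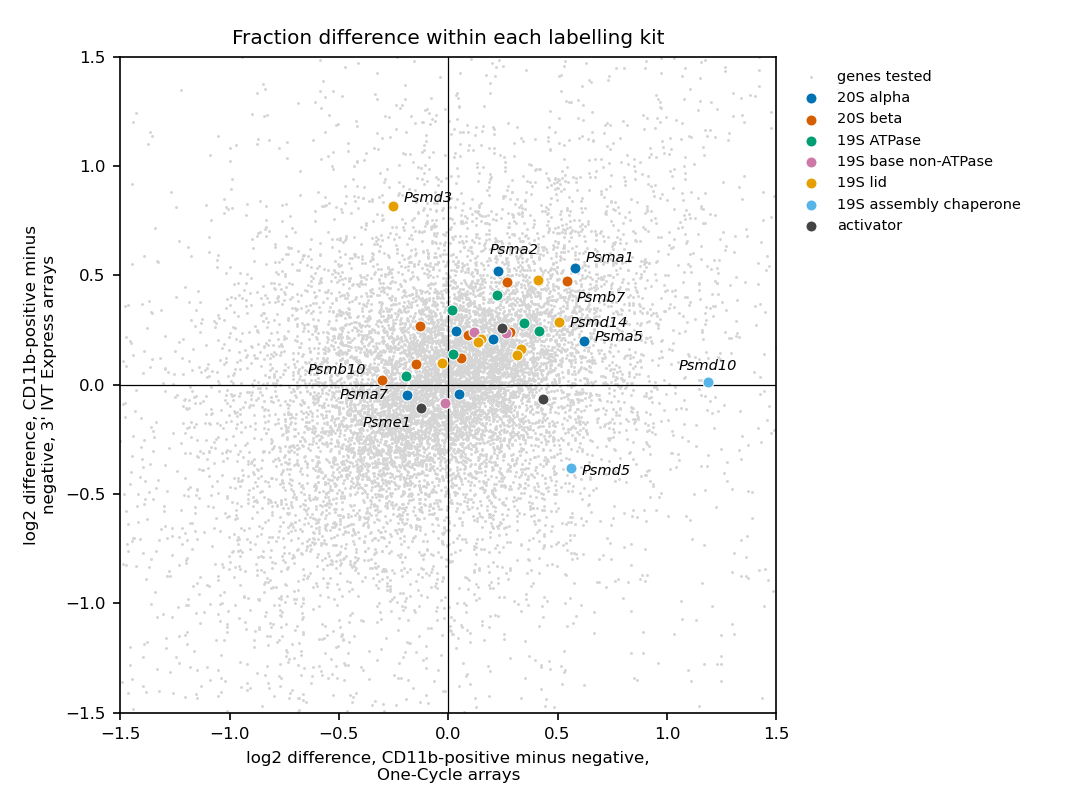
Log2 difference between the CD11b+ and CD11b- arrays within the One-Cycle kit (x axis) and within the 3' IVT Express kit (y axis), with 1 point per gene: grey for genes tested, colours for proteasome genes by role. The axes end at 1.5 in each direction, which leaves 662 genes outside; 25 proteasome genes lie in the upper right quadrant and 3 in the lower left.

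Taken by subcomplex, 10 of 15 core subunits and 13 of 17 cap subunits were higher with both kits, with medians of 0.16 and 0.23. The core median was smaller with One-Cycle (0.089) than with 3' IVT Express (0.23), and the cap medians were 0.15 and 0.24. Differences between the subcomplexes were not tested. The kits shared the direction of the list but not the order of its genes: across the 37 genes the One-Cycle and 3' IVT Express differences correlated with a Pearson's r of 0.035 and a Spearman's rho of 0.24, against 0.28 and 0.31 across all genes. These are descriptions over genes measured on the same 4 arrays. Within roles r was 0.83 over the 8 beta subunits (rho 0.81), 0.62 over the 7 alpha subunits (rho 0.50) and 0.58 over the 6 ATPases (rho 0.31). Over the 8 lid subunits the measures differed in sign, with an r of -0.43 and a rho of 0.12. The typical kit difference of a proteasome gene (median absolute log2 of 0.18) was about the size of the typical fraction difference (0.18), and it was the larger of the pair in 16 of the 37 genes.

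Several probe sets for one gene did not always give one answer. The 37 genes had 80 probe sets, of which 73 passed the filter on low signal, and 18 genes had more than 1 of these. Of the 36 additional probe sets, 26 had the sign of the brightest one and 10, in 9 genes, had the opposite sign. In all, 58 of the 73 probe sets were higher in the CD11b+ arrays on average, 40 with both kits and 10 lower with both. The widest gap was in Psmc4, where the brightest probe set gave a log2 difference of 0.083 and the second gave 0.96, or 1.10 and 0.81 within the kits. Psma6 had 0.14 from the brightest probe set and -0.28 from the second brightest, which was lower with both kits (-0.43 and -0.13). Psma1 had 3 weaker probe sets, all positive (0.22 to 0.55), and the second Psma5 probe set gave 0.16. Psma2, Psmb7 and Psmd14 rested on 1 probe set above the filter each.

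When the probe sets of a gene were averaged, limma with the kit block called 4 proteasome genes higher, Psma2, Psmb7, Psmd14 and Psmc4. Psma1 (adjusted p = 0.234) and Psma5 (0.153) were then not called. When probe sets whose names mark possible cross-hybridisation were left out, the difference relative to all genes turned to -0.29 in Psma6 and -0.21 in Psmd13, to 0.0083 in Psma7 and to 0.14 in Psmc2.

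**Figure D3:**
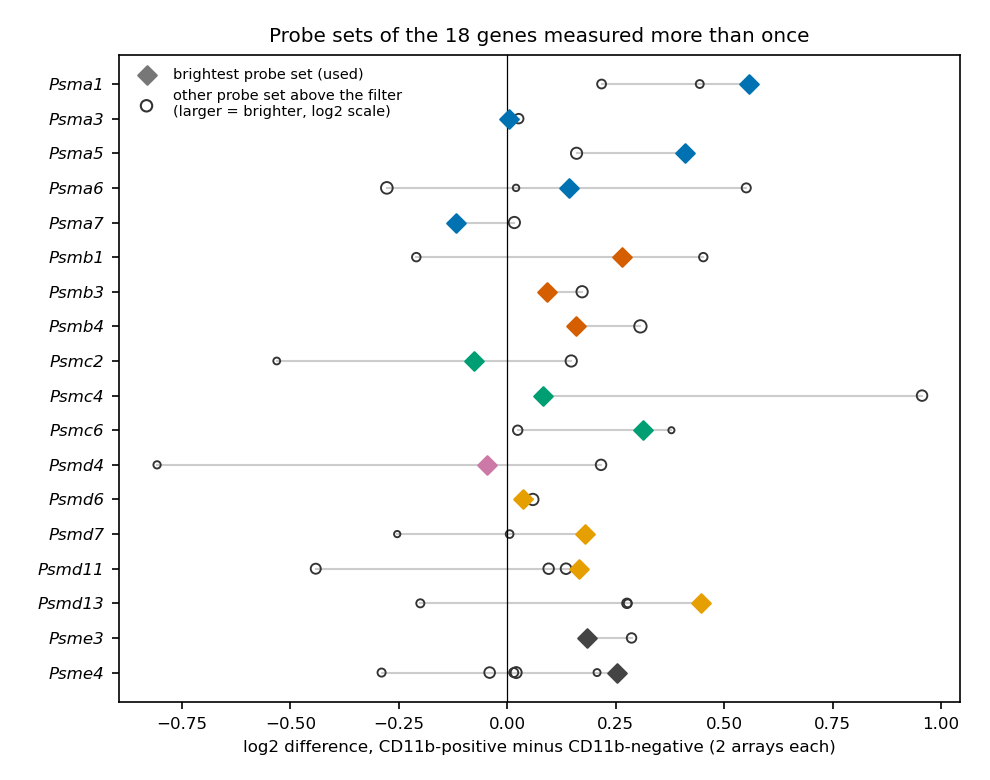
Log2 difference between the CD11b+ and CD11b- arrays (means of 2 arrays each) for every probe set above the filter of the 18 proteasome genes measured by more than 1, with diamonds for the brightest probe set and open circles for the others. Psmc4 has the probe set farthest to the right, at 0.96, and circles lie across the 0 line from the diamond in 9 genes.

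The size of the proteasome difference depended on how the arrays were scaled. Left as deposited, the median gene on the array was higher by 0.42 in the CD11b+ arrays and the median proteasome gene by 0.75, so the list stood 0.33 above all genes. Relative to all genes it stood 0.18 above with quantile normalization, 0.20 with cyclic loess, 0.31 with a common trimmed mean and 0.32 with median centring. The median centring left all genes at 0.21 and the trimmed mean at -0.047. The number of proteasome genes that limma called higher with the kit block was 5 with quantile normalization, the same 5 with cyclic loess, 6 with the trimmed mean (with Psmb1), 26 with median centring and 35 as deposited, and 0 were called lower with any of them. All genes called higher numbered 472, 411, 406, 1732 and 3655 in the same order. Leaving out 1 array moved the list's median relative to all genes from 0.18 to between 0.075, without the CD11b- 3' IVT Express array, and 0.24, without the CD11b- One-Cycle array.

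**Figure D4:**
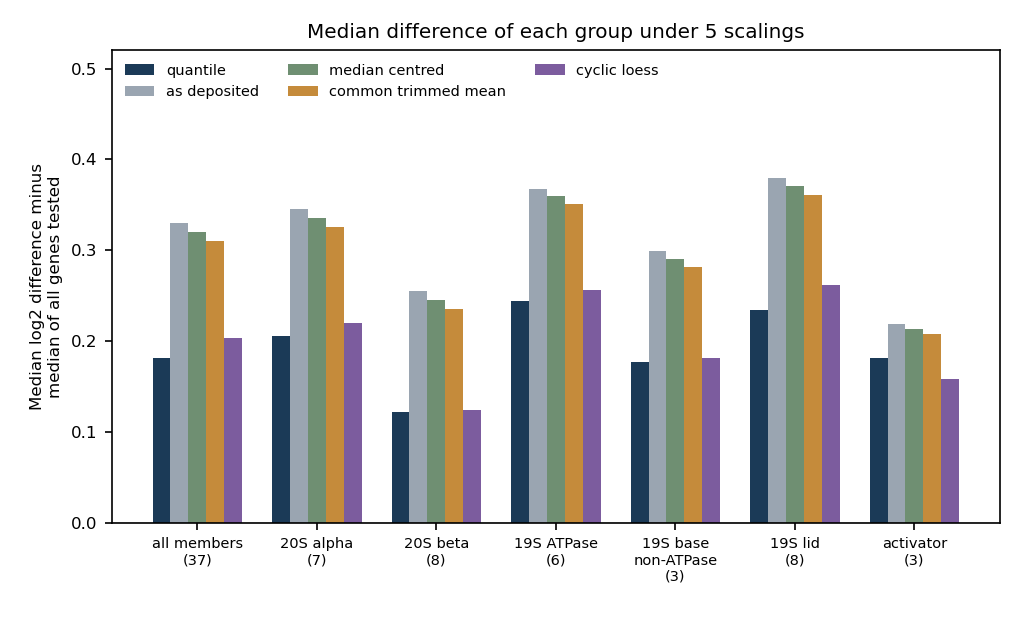
Median log2 difference (CD11b+ minus CD11b-) of all 37 proteasome genes and of each role with at least 3 measured genes, minus the median of all genes tested, with 1 bar per scaling of the arrays. Every bar is above 0, and the bars for the deposited scale, median centring and trimmed mean are taller than those for quantile normalization and cyclic loess.

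Genes that help build the proteasome had a similar median difference. Of 7 measured assembly factors and inhibitors of 9, 5 were higher with both kits, none was lower with both, and the median was 0.18. Relative to all genes it ran from 0.096 without the CD11b- 3' IVT Express array to 0.28 without the CD11b- One-Cycle array. Psmg3, part of an alpha-ring assembly chaperone, had signals of 114 and 133 in the CD11b+ arrays against 68.0 and 69.9 in the CD11b- arrays. It rose 1.75-fold with separate fractions (limma adjusted p = 0.0129 with the kit block). Pomp, the factor that guides beta-ring maturation, had signals of 855 and 662 against 669 and 486. Its rise was 1.32-fold (adjusted p = 0.0228 by limma with the block). These were 2 of the 7 genes (28.6%), where 3.73% of all genes were called higher and 4.14% lower with the block. No gene of any list below passed limma's test without the block.

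The other interferon-induced catalytic subunits, which are no members of the list, did not pass the test. Psmb8 had signals of 1078 and 958 against 1216 and 936. It overlapped between fractions, with log2 differences of -0.17 and 0.033 in the kits. Psmb9 had signals of 681 and 672 against 564 and 608. It was higher with both kits (0.27 and 0.14), with an adjusted p of 0.318 by limma with the block. Of the 4 measured genes of this list of other subunits, 0 passed, where 3.73% of all genes were called higher and 4.14% lower with the block. The median of these 4 genes was 0.10, and relative to all genes it ran from 0.085 to 0.25 over the settings tried. Of the 11 measured class I loading genes, which use peptides made by the proteasome, 1 passed as higher and 1 as lower with the block. They were Pdia3, a disulfide isomerase of the loading complex (1.23-fold, limma adjusted p = 0.0334), and B2m, the class I light chain, which fell by 0.33 on the log2 scale (adjusted p = 0.00679). The median of that list was -0.047. Relative to all genes it was -0.049. It turned to 0.071 with the deposited scaling, 0.063 with median centring and 0.054 with the trimmed mean. Without _x_at, _s_at and _a_at probe sets it was 0.085. Leaving out the CD11b- 3' IVT Express array gave 0.028, and leaving out the CD11b- One-Cycle array gave 0.0018.

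Neither the regulators of the proteasome nor the genes that supply it with ubiquitin had a member past the threshold. Over all genes, 3.73% were called higher and 4.14% lower with the block. At those shares, lists of 11 and 14 genes would hold few calls or none. The list of regulators, called the NRF1 list here, is named for NRF1, which raises proteasome transcription when activity falls short. It is wider than the NRF1 pathway, and also holds Nfe2l2, Nfya, Nfyb, Nfyc, Akirin2 and Ipo9. Its 11 measured genes had a median of -0.086, with 3 higher and 5 lower with both kits and 0 called. These values describe the whole list, and the NRF1 pathway alone was not summarised. Relative to all genes that median was -0.089, and it turned to 0.13 without the CD11b+ One-Cycle array and to 0.023 with averaged probe sets. The smallest p-values were those of Nfe2l2, the NRF1 relative NRF2 (log2 -0.50, limma adjusted p = 0.063 with the block), and Nfyb, a subunit of the CCAAT-binding factor (0.43, adjusted p = 0.154). Nfe2l1 itself, the gene of NRF1, had differences of -0.28 and 0.18 in the kits. The 14 measured genes of ubiquitin activation and delivery had a median of -0.036, with 4 higher and 5 lower with both kits and 0 called. This median was -0.039 relative to all genes. It turned to 0.055 with the deposited scaling, 0.046 with median centring, 0.037 with the trimmed mean and 0.047 with averaged probe sets. Without _x_at, _s_at and _a_at probe sets it was 0.018, and without the CD11b+ 3' IVT Express array it was 0.032. Zfand2a, an arsenite-inducible proteasome-binding protein, and Ubqln1, a shuttle factor, had the smallest p-values, with log2 differences of -0.45 and -0.24 and adjusted p-values of 0.152 and 0.242 by limma with the block.

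Other large complexes gave a scale for the proteasome values. The CCT chaperonin, a cytosolic folding ring, had all 8 subunits higher with both kits and a median of 0.25. The CCT median relative to all genes ran widely when 1 array was left out, from 0.038 without the CD11b+ One-Cycle and 0.092 without the CD11b- 3' IVT Express array to 0.42 without the CD11b+ 3' IVT Express and 0.44 without the CD11b- One-Cycle array. Those values set uneven kits against each other. Within the kits, the CCT medians were 0.24 with One-Cycle and 0.28 with 3' IVT Express. Cct8 (1.42-fold) and Cct2 (1.30-fold) passed limma's test with the block (adjusted p = 0.0133 and 0.0229). They were 2 of 8 subunits (25%), where 3.73% of all genes were called higher and 4.14% lower. The COP9 signalosome, a relative of the lid, had a median of 0.12, with 5 of 9 subunits higher and 2 lower with both kits. The COP9 median was 0.11 relative to all genes, and it was 0.065 without the CD11b- One-Cycle array, 0.17 without the CD11b- 3' IVT Express array and 0.24 with the deposited scaling. Its subunit Cops5, the deneddylase related to Psmd14, was called 1.40-fold higher (limma adjusted p = 0.0241 with the block). That was 1 of 9 subunits (11.1%), beside the same shares of all genes. Whether the proteasome differed from these complexes was not tested.

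**Figure D5:**
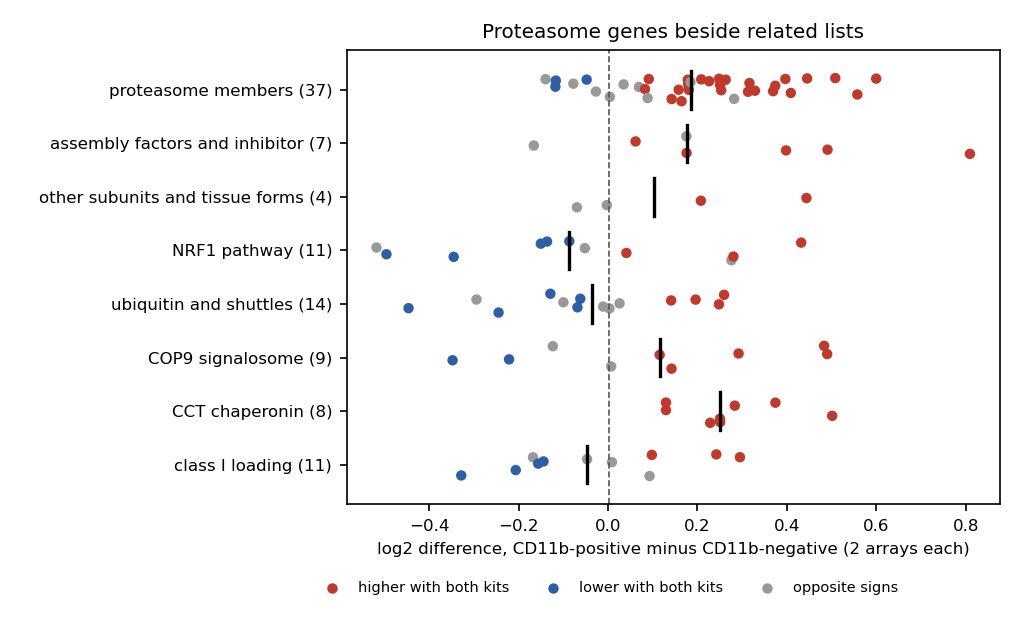
Log2 difference between the CD11b+ and CD11b- arrays (means of 2 arrays each) of each measured gene, by list, with the number of genes in brackets, a black bar at the list's median and a dashed line at the median of all genes tested. The proteasome, assembly factor, other subunit, COP9 and CCT lists have their medians above that line, and the NRF1, ubiquitin and class I lists below it with quantile normalization. The ubiquitin and class I medians lie above it with the deposited scaling, median centring and the trimmed mean.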

How the data were processed

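The deposited values are linear array intensities of each probe set, computed with Affymetrix Expression Console and MAS5 per the submitters' processing notes. The scaling target is not given in the sources used here. Among 45101 probe sets, 34945 named 1 gene, 932 several and 9160 none in the platform annotation. Signals were quantile-normalized and a pseudocount of 3 was added before log2, which understates differences of weak genes. Probe sets above the 40th percentile of mean log2 signal (a signal of 9.51) were kept and the brightest per gene was used. The 12645 genes were fitted with limma 3.58.1 in R 4.3.3 (eBayes with a trend, 2-sided, Benjamini-Hochberg over all genes, threshold 0.05), without and with the labelling kit as a block. Both fits were also run on simulated data, with normal noise at the spread taken from the block fit. That setting follows the block fit, so it cannot check that fit on these arrays. Each kit holds 1 array of both fractions per the labels' protocols, and deviations of same-kit arrays from their fraction means correlated (r = 0.387). With the block, 1 residual degree of freedom is joined to a prior of 25.6.

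The members and all gene lists were chosen with earlier results of these data known. The rule for names covers every member, with the signal on each array for the proteolytic subunits, the activators, Psmd14, every gene past the threshold and up to 3 genes per role by smallest p with the block and equal signs in the kits. In related lists it covers genes past the threshold, otherwise the 2 with the smallest p, and Psmb8 and Psmb9; Nfe2l1 was named in addition. Of 76 genes in the related lists 64 were tested, and of 61 markers 56. The others are not analysed here. Alternatives run were a pseudocount of 1 or 12, signals as deposited, median centring, a common 2% trimmed mean, cyclic loess, no filter or one at the 70th percentile, averaging or restricting probe sets, no trend, the block, and leaving out each array. Combining the block with another scaling or with averaged probe sets was chosen after seeing the data.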

Additional observations from a re-analysis of the deposited data

How the results depend on the processing

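Differences in this paragraph are on the log2 scale and relative to the median of all genes. With the kit as a replicate block, limma called 472 genes higher and 524 lower instead of 0, with 5 proteasome genes and 7 genes of the related lists among them. Combined with the block, median centring gave 26 proteasome genes, 1732 genes higher and 207 lower, and the deposited scaling gave 35, 3655 and 154. The list's median was 0.33 with the deposited scaling, 0.32 with median centring and 0.31 with a common trimmed mean. In the same order it was 0.26, 0.25 and 0.23 for the beta subunits, 0.37, 0.36 and 0.35 for the ATPases, and 0.30, 0.29 and 0.28 for the other base subunits. Genes lower with both kits numbered 0, 0 and 1 before the median of all genes was subtracted and 0 with each of the 3 after it. Differences turned positive in Psma7 (0.059, 0.049 and 0.038), Psmb5 (0.13, 0.12 and 0.11), Psmc2 (0.072, 0.062 and 0.052), Psmd4 (0.073, 0.064 and 0.054) and Psme1 (0.047, 0.037 and 0.027), and in Psmb10 with the deposited scaling (0.00065). Psma3, which was near 0, turned to -0.038 with cyclic loess, -0.013 with a filter at the 70th percentile and -0.0027 with averaged probe sets. Averaged probe sets also gave -0.041 in Psmd7 and 0.0095 for the activators. Without _x_at, _s_at and _a_at probe sets the activators stood at 0.012, Psma6 at -0.29, Psma7 at 0.0083, Psmc2 at 0.14 and Psmd13 at -0.21. Leaving out 1 array also leaves the kits uneven between the fractions. The median then ran from 0.075 to 0.24 for the list, 0.036 to 0.38 for the alpha subunits, -0.0044 to 0.19 for the beta subunits, 0.10 to 0.29 for the ATPases, 0.034 to 0.18 for the other base subunits and -0.084 to 0.23 for the activators. Genes called by limma without the block numbered 0 to 2 higher and 0 to 23 lower. Signs turned on leaving out an array in Psma3 (-0.14 to 0.12), Psma6 (-0.041 to 0.33), Psmb3 (-0.21 to 0.36), Psmb5 (-0.098 to 0.049), Psmb6 (-0.044 to 0.19), Psmb7 (-0.38 to 1.37), Psmc2 (-0.30 to 0.15), Psmc3 (-0.035 to 0.40), Psmc4 (-0.057 to 0.23), Psmd3 (-0.11 to 0.68), Psmd5 (-0.31 to 0.46), Psmd6 (-0.066 to 0.11), Psmd7 (-0.042 to 0.37) and Psme3 (-0.24 to 0.59). Of 37 genes, 18 had the same sign under every alternative that gave them a value. In all, 46 of 586 values had turned, 22 of them on leaving out an array. The cause of these turns was not tested. With 2 arrays per fraction and 1 per fraction and kit, differences of the size seen in most proteasome genes are within the spread between arrays, and signal over background was not assessed beyond the filter on low signal.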
